A study of Drosophila melanogaster with 2 samples.

Results

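The genes described here are 38 genes of the cell division cycle in Drosophila melanogaster, chosen by name: 14 that act in S phase, when DNA is copied, and 24 that act in the G2 phase or in mitosis, when chromosomes are condensed and parted. All 38 had at least 1 UMI (unique molecular identifier, a tag that marks 1 captured RNA molecule) in the table, which lists 17039 genes, 11735 of them with a UMI. RNA was counted in single nuclei of fly embryos collected over 0 to 24 h, in 1 library. Per the labels, nuclei were fixed with a crosslinker and cut with restriction enzymes, ends were ligated, and RNA and DNA received barcodes from 10x Genomics. The labels give no genotype, strain, second condition or replicate, and no number of embryos. The accessibility and interactome library of the same design was not analysed here. With 1 library no test between groups is possible, and all intervals are 95% intervals that cover counting error only. They are exact, except the score-based interval of a difference between shares.

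The library held 318 nuclei under 318 distinct names and 2233526 UMIs. A nucleus held a median of 2969 UMIs, from 279 to 123309, and the 32 deepest nuclei carried 48.5% of all UMIs. Levels below are counts in 1000000 UMIs (CPM). They were not corrected for transcript length, so an order of genes is an order of counts and not of expression.

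A cell copies its DNA once per cycle because origins are licensed by the origin recognition complex, Cdc6 and Cdt1, which load the MCM helicase, and because geminin then blocks Cdt1. Cyclin E with Cdk2 starts the copying, and Cdk1 with the A and B cyclins, activated by the phosphatase encoded by stg, starts mitosis. Fly embryos first divide on RNA and protein laid down by the mother, and later divisions wait for transcription of stg in each domain. Towards the end of embryogenesis most cells leave the cycle, neural precursors are among those that go on dividing, and the midgut and salivary glands turn to endocycles, in which DNA is copied without mitosis.

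Transcripts of mitosis outnumbered those of S phase in this library. The S phase list took 2230 UMIs, or 0.0998% of the library (0.0957% to 0.104%), and the mitosis list 5687 UMIs, or 0.255% (0.248% to 0.261%). The ratio of mitosis to S phase UMIs was 2.55 (2.43 to 2.68), while the lists hold 24 and 14 genes. Per gene the lists were closer, with a median of 134.5 UMIs in the mitosis list and 113.5 UMIs in the S phase list. The surplus lay in a few genes. stg, CycA, CycB, CycB3 and Cdk1, which bring about entry into mitosis, together had 3148 UMIs, 39.8% of the UMIs of all 38 genes.

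Among the S phase genes CycE, the cyclin that starts DNA replication, had the most UMIs. It had 376 UMIs (168 CPM, 152 to 186), found in 121 nuclei, with up to 33 in 1 nucleus. geminin, the inhibitor of licensing, had 299 UMIs (134 CPM, 119 to 150) in 126 nuclei, the widest of the list. Its target dup, the fly Cdt1, had 174 UMIs (77.9 CPM, 66.8 to 90.4) in 89 nuclei. The other licensing genes counted less, with 73 UMIs of Orc1, a subunit of the origin recognition complex, and 72 of Cdc6, the loader of the helicase, each in 51 nuclei.

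PCNA, the sliding clamp of the replication fork, had 260 UMIs (116 CPM, 103 to 131) in 113 nuclei. RnrS and RnrL encode the small and large subunits of ribonucleotide reductase, which makes the precursors of DNA. RnrS had 204 UMIs (91.3 CPM, 79.2 to 105) in 89 nuclei and RnrL 100 UMIs in 62 nuclei. The 6 subunits of the MCM helicase had 672 UMIs in all (301 CPM, 279 to 325). Among them Mcm7 had the most, with 171 UMIs (76.6 CPM, 65.5 to 88.9) in 80 nuclei. The other 5, Mcm6, dpa (which encodes Mcm4), Mcm3, Mcm5 and Mcm2, had 127, 100, 99, 88 and 87 UMIs, and the intervals of the last 4 overlap. Taken singly each S phase gene was missing from most nuclei, as the median over nuclei was 0 for each of the 14.

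Among the mitosis genes the triggers of mitotic entry had the most UMIs. stg had 1196 UMIs (535 CPM, 506 to 567) in 201 nuclei, with up to 84 in 1 nucleus, and ranked 257th of all genes by UMIs. CycB had 901 UMIs (403 CPM, 377 to 431) in 181 nuclei. CycA had 594 UMIs (266 CPM, 245 to 288) in 156 nuclei, and CycB3 313 UMIs (140 CPM, 125 to 157) in 118 nuclei. stg and CycB were the only members of either list with a median of 1 UMI per nucleus rather than 0. Cdk1, the kinase these cyclins activate, had 144 UMIs.

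Genes of chromosome condensation, of the spindle and of its checkpoint followed. Top2, the topoisomerase that untangles sister DNA, had 457 UMIs (205 CPM, 186 to 224) in 138 nuclei. The condensin subunits barr, SMC2 and glu had 99, 85 and 83 UMIs, with overlapping intervals. polo, a kinase of many mitotic steps, had 229 UMIs (103 CPM, 89.7 to 117) in 106 nuclei. aurA, a kinase of centrosomes, had 40 UMIs. In the chromosomal passenger complex borr and Incenp had 179 and 172 UMIs, and their kinase aurB 73. The centromeric histone cid had the fewest UMIs of the 38, with 26 (11.6 CPM, 7.60 to 17.1) in 20 nuclei.

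The checkpoint kinases Bub1 and BubR1 had 97 and 87 UMIs, and fzy, the fly Cdc20 that starts anaphase, had 159. Of the motors, the microtubule depolymerase Klp10A had 212 UMIs, the minus-end motor ncd 95 and the bipolar kinesin Klp61F 66. Of the cytokinesis genes, feo, which bundles the central spindle, had 162 UMIs, and tum and pav, partners in centralspindlin, had 125 and 93.

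Some members overlap another gene in the Release 6 annotation, which is not the build of these files, so their counts can hold reads of the neighbour if strand was not used. fzy overlaps cact (395 UMIs), Cdc6 overlaps Zasp66 (490 UMIs), dup overlaps SRPK (248 UMIs) and aurA overlaps CG12213 (112 UMIs). In each of these pairs the neighbour had more UMIs than the member. Mcm3, Orc1, CycA and ncd overlap genes with fewer UMIs than their own.

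**Figure D1:**
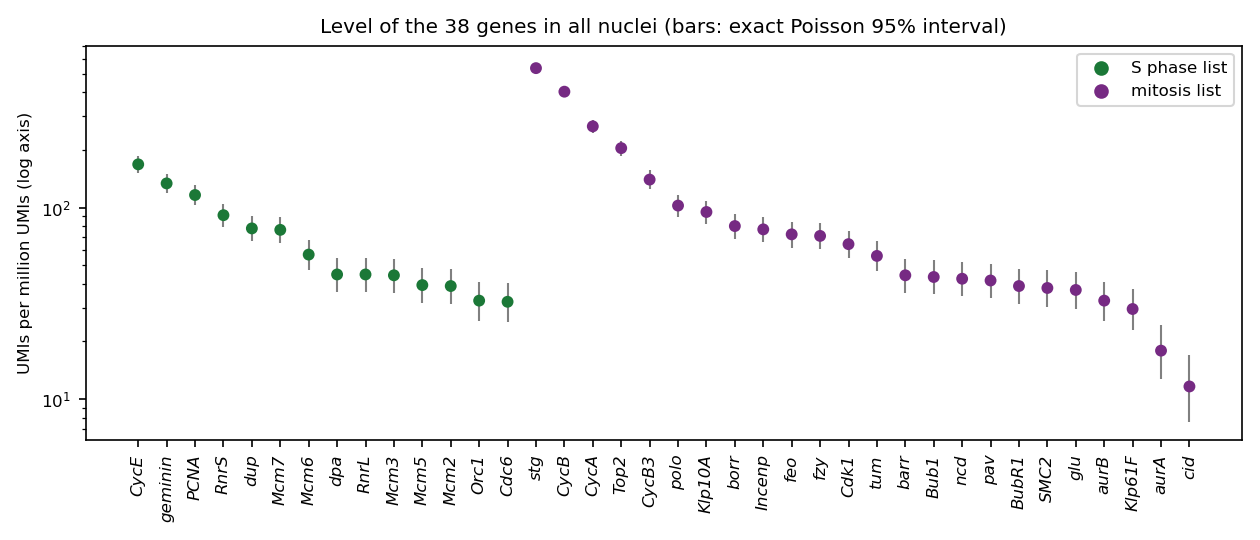
Level in CPM of each of the 38 genes over all nuclei, on a log axis, with exact Poisson 95% intervals, S phase list in green and mitosis list in purple. stg stands highest at 535 CPM and cid lowest at 11.6 CPM, and most members of both lists lie in the same range.

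Other genes of the cycle were counted in the same way, from lists of names. All 34 further replication genes found had a UMI, with 2017 UMIs in all (903 CPM). The highest were dUTPase, which keeps uracil out of DNA, with 313 UMIs, chif, the activator of the origin kinase Cdc7, with 265, RPA3, a part of the single-strand binding complex, with 160, and Caf1-180, a histone chaperone of the fork, with 148. The 57 further mitosis genes had 10202 UMIs, of which 3805 were of CycG, a cyclin with no settled role in mitosis. Next came the cohesin loader Nipped-B with 764, the centrosome protein gene tacc with 367 and fzr, the fly Cdh1 that helps cells out of mitosis and into endocycles, with 335. Among 25 regulators of the cycle, Myc had 1674 UMIs, the S phase transcription factor E2f1 had 679, the Cyclin E inhibitor dap 671 and ago, which targets Cyclin E for breakdown, 364. The inhibitor dap thus had more UMIs than CycE itself, at 300 CPM (278 to 324) against 168 CPM.

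Transcripts of both lists were widespread among nuclei, but at low counts. A nucleus held a median of 2 S phase UMIs and 6 mitosis UMIs, with 196 and 429 as the highest values. UMIs of both lists were found in 236 nuclei (74.2%), of the mitosis list only in 51, of the S phase list only in 12 and of neither in 19. Detection followed depth. In the 80 shallowest nuclei, with 279 to 1385 UMIs, 37.5% held an S phase UMI and 71.3% a mitosis UMI. The 80 deepest nuclei all held both. The level itself changed less with depth, from 814 CPM (615 to 1056) in the 80 shallowest nuclei to 1037 CPM (989 to 1088) in the 80 deepest for S phase, and from 2092 (1764 to 2463) to 2657 CPM (2578 to 2737) for mitosis.

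To compare nuclei at equal depth, each was thinned to 1000 UMIs drawn at random, which left 270 nuclei and dropped 48. Of these 57.8% (51.6% to 63.7%) held an S phase UMI and 82.6% (77.5% to 86.9%) a mitosis UMI. Averaged exactly over all possible draws, the shares were 54.4% and 82.4%. At this depth stg was found in 35.2% of nuclei (29.5% to 41.2%), CycB in 27.8% (22.5% to 33.5%), CycA in 16.3% and CycE in 15.2% (11.1% to 20%). For a typical member of either list the share was near 5%, which is 5.37% as the median of the S phase list and 5.0% of the mitosis list.

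Neuron-like and muscle-like nuclei, classes that should for the most part have left the cycle, give a background for these shares. Neuron-like cluster 3 held 46 nuclei with a median depth of 1563 UMIs. At 1000 UMIs 60.6% of them (42.1% to 77.1%) held an S phase UMI and 81.8% (64.5% to 93.0%) a mitosis UMI. In the 32 muscle-like nuclei, with a median depth of 4496 UMIs, the shares were 50% (31.3% to 68.7%) and 70% (50.6% to 85.3%). The second neuron-like cluster, cluster 4, is not used as background, since the neuroblast list stood there at 3.13 times all other nuclei (2.82 to 3.47) and neural precursors divide. Of the 396 UMIs of that list in cluster 4, 301 were of the single gene brat, and whether its nuclei divide was not tested. The shares over all nuclei lie within these intervals, which are wide and come from 33 and 30 nuclei, so finding a UMI of either list in a nucleus was not read as a sign of cycling. The summed levels of these classes were lower than in the library, as given with the clusters. The order of the 38 genes in these classes was close to that elsewhere. Spearman's rho across the 38 genes between the CPM of a cluster and that of all other nuclei was 0.90 both for cluster 3 and for the muscle-like cluster, and 0.62 for cluster 4. Free RNA in the droplets was not tested as a source.

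Whether S phase and mitosis genes occur in the same nuclei was asked at matched depth. At 1000 UMIs a mitosis UMI was found in 132 of 156 nuclei with an S phase UMI (84.6%, 78.0% to 89.9%) and in 91 of 114 without one (79.8%, 71.3% to 86.8%). The difference of 4.79 percentage points has an interval that includes 0, from 4.28 points lower to 14.4 points higher, while a second draw gave 16.2 points (6.65 to 25.6) and a draw of 500 UMIs 13 points (1.59 to 23.6), both without 0. Averaged exactly over all draws the shares were 86.1% and 77.9%, a difference of 8.15 points. The proteasome, whose 32 genes are not tied to the cycle, serves as a reference. Over all draws of 1000 UMIs an S phase UMI was found in 55.9% of nuclei with a proteasome UMI and in 47.8% of those without, a difference of 8.14 points. At 500 UMIs the difference was 10.9 points for S phase and mitosis genes against 3.45 points for the proteasome and S phase genes. At 2000 UMIs it was 6.60 points against 16.1 points. Between these pairs, which gave the wider difference thus changed with the depth. For a mitosis UMI with and without a proteasome UMI the difference was 7.94, 6.81 and 3.39 points at 500, 1000 and 2000 UMIs. At each depth this was narrower than the 10.9, 8.15 and 6.60 points with the S phase list, though these averages carry no interval. With a list of 11 oocyte genes in place of the proteasome it was 16.5, 13.1 and 5.48 points. At 2000 UMIs 95.6% of the 208 nuclei held a proteasome UMI, so few were without one.

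Nuclei with more than single S phase UMIs held more mitosis UMIs. Among the 114 nuclei without an S phase UMI at 1000 UMIs, the mean was 1.90 mitosis UMIs and 31.6% (23.2% to 40.9%) held at least 3. Among the 32 nuclei with at least 3 S phase UMIs the mean was 3.72, and 59.4% (40.6% to 76.3%) held at least 3. The intervals of these shares touch.

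Deeper nuclei allowed a graded comparison. When the 59 nuclei with at least 10000 UMIs were thinned to that number, they held a median of 8 S phase UMIs (0 to 37) and 28 mitosis UMIs (3 to 64), from a median of 18 distinct members. All but 1 had more mitosis than S phase UMIs, and the exception had equally many. Pearson's r between the lists was 0.79 and Spearman's rho 0.73 across these 59 nuclei, which share 1 library. Without the 2 nuclei farthest from the median of S phase UMIs r was 0.75. The same measures between the mitosis list and the proteasome list were 0.81 and 0.68, and between the S phase list and the proteasome list 0.71 and 0.51. Without the 2 nuclei farthest from the median of mitosis UMIs the first of these r was 0.74. Without the 2 farthest in S phase UMIs the second was 0.54. With the list of neuroblast markers r was 0.19 for the S phase list and 0.23 for the mitosis list, and rho was 0.41 and 0.43. Leaving out the 2 nuclei farthest in S phase or in mitosis UMIs gave r of 0.33 and 0.28 with these markers. For a list of 11 oocyte genes r was 0.68 with the S phase list and 0.60 with the mitosis list, and rho was 0.46 and 0.66. With the same nuclei left out these r were 0.40 and 0.49. S phase and mitosis UMIs thus varied together across these nuclei at equal depth, and the proteasome and oocyte genes varied with them. The proteasome list varied less with the S phase list than the mitosis list did, at r of 0.71 against 0.79. Without the 2 nuclei farthest in S phase UMIs these were 0.54 against 0.75, and no interval was computed for any r. In the 26 of these nuclei with at least 10 S phase UMIs the ratio of mitosis to S phase UMIs ran from 1.38 to 4.0, with a median of 2.37. This limit is set on the denominator, so by itself it tends to lower the ratio and narrow its range. In the other nuclei the ratio ran from 1.0 to 7.0, and 1 nucleus had no S phase UMI.

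The spread among nuclei was wider than counting alone gives. At 10000 UMIs the variance over the mean, which is about 1 for pure counting, was 7.27 for the mitosis list and 4.32 for the S phase list. It was 5.54 for the proteasome list and 2.92 for the further replication genes. No S phase gene exceeded 1.40 on its own at 5000 UMIs, while the highest mitosis gene reached 3.04.

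**Figure D2:**
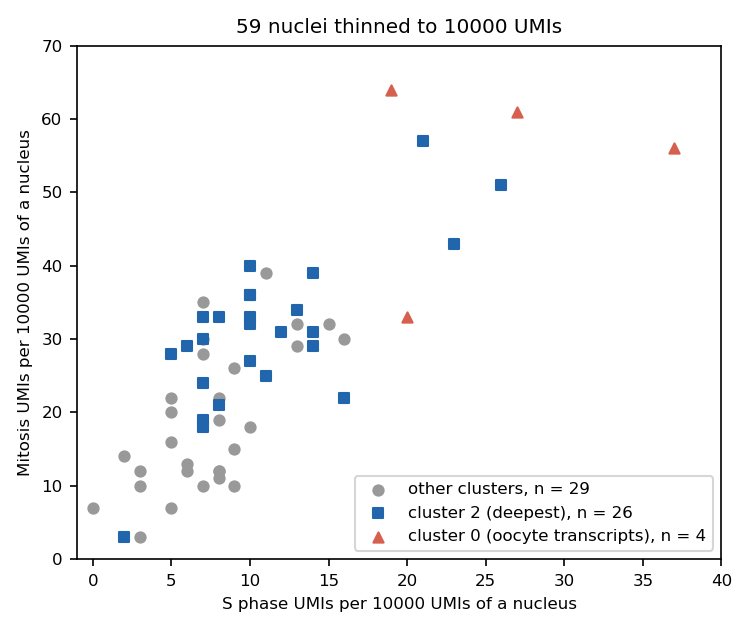
S phase UMIs (x axis) against mitosis UMIs (y axis) in each of the 59 nuclei with at least 10000 UMIs, thinned to 10000 UMIs, with 4 nuclei of cluster 0 and 26 of cluster 2 marked. Nuclei with many S phase UMIs also had many mitosis UMIs, and 3 of the 4 cluster 0 nuclei have over 50 mitosis UMIs.

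Single pairs of members were followed at 5000 UMIs, in 109 nuclei. The pairs join genes of related roles and were picked with earlier values of these genes known. CycA was found in 72 of 93 nuclei with stg (77.4%, 67.6% to 85.4%) and in 2 of 16 without (12.5%, 1.55% to 38.3%), and these intervals do not overlap. CycB did not show this, at 76.3% with stg and 75% without. CycB was found in 52 of 59 nuclei with CycE (88.1%, 77.1% to 95.1%) and in 31 of 50 without (62.0%, 47.2% to 75.3%). It was found in 40 of 43 nuclei with polo (93.0%, 80.9% to 98.5%) and in 43 of 66 without (65.2%, 52.4% to 76.5%). Top2 was found in 36 of 46 nuclei with PCNA (78.3%, 63.6% to 89.1%) and in 32 of 63 without (50.8%, 37.9% to 63.6%), and these intervals are apart by a narrow margin. For the other 13 of the 18 pairs the intervals overlap. Among these are pairs of direct partners, such as geminin and dup, RnrS and RnrL, and Incenp and borr, where borr was found in 36.8% of nuclei with Incenp and 29.6% of those without.

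The lists were then compared between 12 clusters of nuclei, formed without any gene of the cycle lists. Clusters were named only by markers. Cluster 9 is muscle-like by 16 markers, among them muscle myosin Mhc (6913 against 465 CPM in all other nuclei). Cluster 3 is neuron-like by 13 markers, with the sodium channel para at 2410 against 178 CPM. Cluster 4 is neuron-like by 5 markers and also had 4 neuroblast markers. Cluster 1 is midgut-like, cluster 7 epidermis-like and cluster 8 salivary gland-like. Clusters 0, 2, 5, 6, 10 and 11 have no name.

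Both lists were highest in cluster 0, which was led by the oocyte transcripts dhd, yl and osk. Of their 583, 59 and 85 UMIs in the cluster, 466, 41 and 58 lay in 1 nucleus. Its 43 nuclei had S phase genes at 2187 CPM (1974 to 2416) and mitosis genes at 5263 CPM (4930 to 5613). These are 2.44 times (2.18 to 2.72) and 2.28 times (2.12 to 2.44) the level of all other nuclei. All 38 genes were above the other nuclei, where 54.5% of all 7983 genes with at least 20 UMIs were. On the scale of CPM + 10, 12 S phase and 12 mitosis genes were at least 2-fold higher, 63.2% of the members against 9.37% of all genes. The median log2 ratio on that scale was 1.20 for the S phase list and 1.04 for the mitosis list, against 0.08 for all genes. The proteasome list was 1.94 times higher there (1.79 to 2.11) and the list of oocyte genes 7.47 times (6.89 to 8.09), or 2.62 times (2.27 to 3.0) without the nucleus just named, which held 769 of the 1002 oocyte UMIs of the cluster. Without thinning, an oocyte UMI was found in 33 of its 43 nuclei (76.7%), against 225 of all 318 nuclei (70.8%). Whether RNA from the mother takes part in the level of the members was not tested.

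The ratios of single genes in cluster 0 were highest for cid at 8.55 (3.55 to 19.9, on 11 UMIs) and the helicase gene Mcm3 at 3.53 (2.11 to 5.69). They were lowest for aurB at 1.24 (0.478 to 2.69) and dup at 1.43 (0.837 to 2.31), whose intervals include 1. The triggers of mitosis lay between, with CycB at 2.61 (2.19 to 3.10), CycA at 2.59 (2.08 to 3.20) and stg at 2.26 (1.92 to 2.63).

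A single nucleus carried much of this. The nucleus with the most UMIs of the 38 genes lay in cluster 0, held 59253 UMIs and had UMIs of all 38 genes, 196 of S phase and 429 of mitosis. It made up 2.65% of the library, 8.79% of the S phase UMIs and 7.54% of the mitosis UMIs. It held 88 UMIs of CycB, 64 of CycA and 62 of stg, and also 466 of dhd and 65 of the germ cell gene pgc. Without it the S phase ratio of cluster 0 was 1.81 (1.55 to 2.10) and the mitosis ratio 1.84 (1.68 to 2.02). The members at least 2-fold higher were then 10, of which 3 were of S phase, against 5.03% of all genes. Without that nucleus 36 of 38 members were above the other nuclei, and the share of all genes above was not counted for this comparison. stg was as high without that nucleus as with it, at 2.31 (1.91 to 2.77), and so were Cdk1 at 3.02 (1.78 to 4.89) and polo at 2.66 (1.72 to 3.97). CycA and CycB were at 1.59 (1.14 to 2.16) and 1.84 (1.43 to 2.32). Mcm2, Mcm6, feo, Klp61F and tum were between 1.15 and 1.30, with intervals that include 1. Cdc6 at 0.822 (0.165 to 2.51) and glu at 0.988 (0.262 to 2.64) were the members below 1. Of the other helicase genes, Mcm3, Mcm5 and Mcm7 were at 2.77 (1.37 to 5.13), 2.58 (1.18 to 5.04) and 2.56 (1.54 to 4.06). The last helicase gene, dpa, was at 1.97 (0.871 to 3.94).

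**Figure D3:**
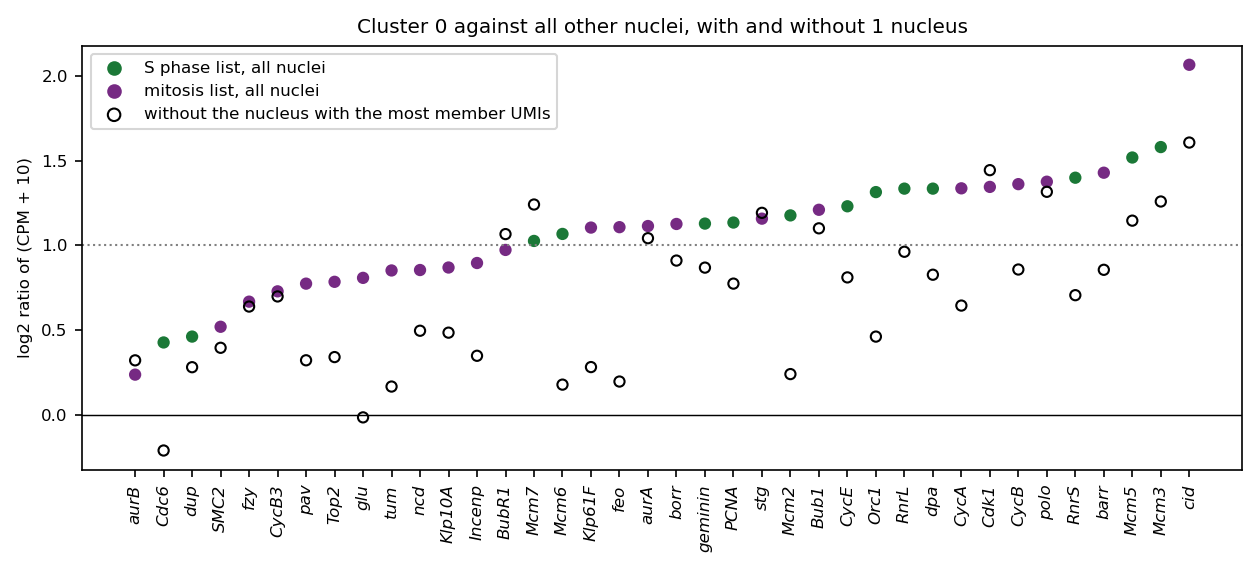
The log2 ratio of (CPM + 10) in cluster 0 against all other nuclei for each gene (filled, S phase in green and mitosis in purple) and the same without the nucleus with the most member UMIs (open). The dotted line marks 2-fold. All filled points lie above 0, 24 of them at or above the dotted line, and 10 open points do.

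The other pathway genes were counted in cluster 0 as well. Of 28 further replication genes with at least 20 UMIs 13 were at least 2-fold higher there, of 24 regulators 12, and of 54 further mitosis genes 9, against 9.37% of all genes. Their median log2 ratios were 0.95, 1.0 and 0.64, against 0.08 for all genes. Without the same nucleus the further replication genes were 1.71 times (1.44 to 2.01) and the further mitosis genes 1.07 times (0.978 to 1.16) the level elsewhere, and the proteasome genes 1.58 times (1.41 to 1.76).

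Cluster 2, the deepest with a median of 9480 UMIs over 54 nuclei, came next for mitosis genes at 3032 CPM (2905 to 3163), 1.31 times all other nuclei (1.24 to 1.38). Its S phase genes stood at 1094 CPM (1018 to 1174), 1.15 times (1.05 to 1.25). The shift was small and broad. Here 32 of 38 members were above the other nuclei, against 54.6% of all genes, and none was 2-fold higher, against 1.06% of all genes. The median log2 ratio of (CPM + 10) was 0.22 for the S phase list and 0.33 for the mitosis list, against 0.05 for all genes. pav stood highest at 1.94 (1.26 to 2.98) and Mcm2 next at 1.68 (1.07 to 2.62), while Klp61F was lowest at 0.583 (0.298 to 1.07) and dpa next at 0.722 (0.440 to 1.15). Proteasome genes were 1.28 times higher (1.20 to 1.35) in the same nuclei. Part of cluster 2 changed places under other clusterings, and at 1000 UMIs per nucleus the mitosis ratio was 1.13 (0.923 to 1.37).

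In muscle-like nuclei both lists stood lower but were not absent, and in neuron-like nuclei this varied with the list and the cluster. The muscle-like cluster had S phase genes at 769 CPM (686 to 859) and mitosis genes at 1855 CPM (1725 to 1992), 0.732 and 0.687 times the other nuclei. Here 4 of 38 members were above the other nuclei, against 32.4% of all genes. 2 were at least 2-fold lower on the scale of CPM + 10, against 7.77% of all genes. The median log2 ratio was -0.47 for the S phase list and -0.43 for the mitosis list, against -0.22 for all genes. Orc1 stood lowest, with 2 UMIs in the class (0.127, 0.0151 to 0.475), then Mcm2 (0.394, 0.153 to 0.850), while dpa (1.27, 0.753 to 2.06) and dup (1.13, 0.759 to 1.65) stood highest. Proteasome genes were at 0.755 there, so the muscle-like nuclei were low in all 3 lists by a like factor. In neuron-like cluster 3 mitosis genes were at 0.744 (0.668 to 0.826) and S phase genes at 0.860 (0.730 to 1.01), and 6 of 38 members were above the other nuclei, against 42.8% of all genes. Proteasome genes were at 0.750 (0.665 to 0.842) in cluster 3, near the mitosis ratio. When each nucleus was weighed the same, the S phase ratio of this cluster turned to 1.19. In neuron-like cluster 4 mitosis genes stood at 2406 CPM (2044 to 2815), 0.944 times the other nuclei with an interval that includes 1 (0.800 to 1.11). S phase genes stood there at 694 CPM (506 to 929), 0.689 times (0.501 to 0.925). Epidermis-like and salivary gland-like nuclei had mitosis genes at 1753 CPM (1466 to 2080) and 1396 CPM (1086 to 1766).

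The lowest level was in cluster 6, whose 13 nuclei had 3 fat body markers, apolpp, srp and Tps1, without those among its leading genes. S phase genes stood there at 429 CPM (272 to 644) and mitosis genes at 951 CPM (708 to 1251), 0.424 and 0.368 times the other nuclei. No UMI was found of 16 of the 38 genes among the 53602 UMIs of the cluster. The share of all genes without a UMI there was not counted, so this number has no background. 26 members were at least 2-fold lower, against 44.7% of all genes, and the median log2 ratio was -1.28 for the S phase list and -2.00 for the mitosis list, against -0.85 for all genes. The proteasome list was at 0.474 there.

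**Figure D4:**
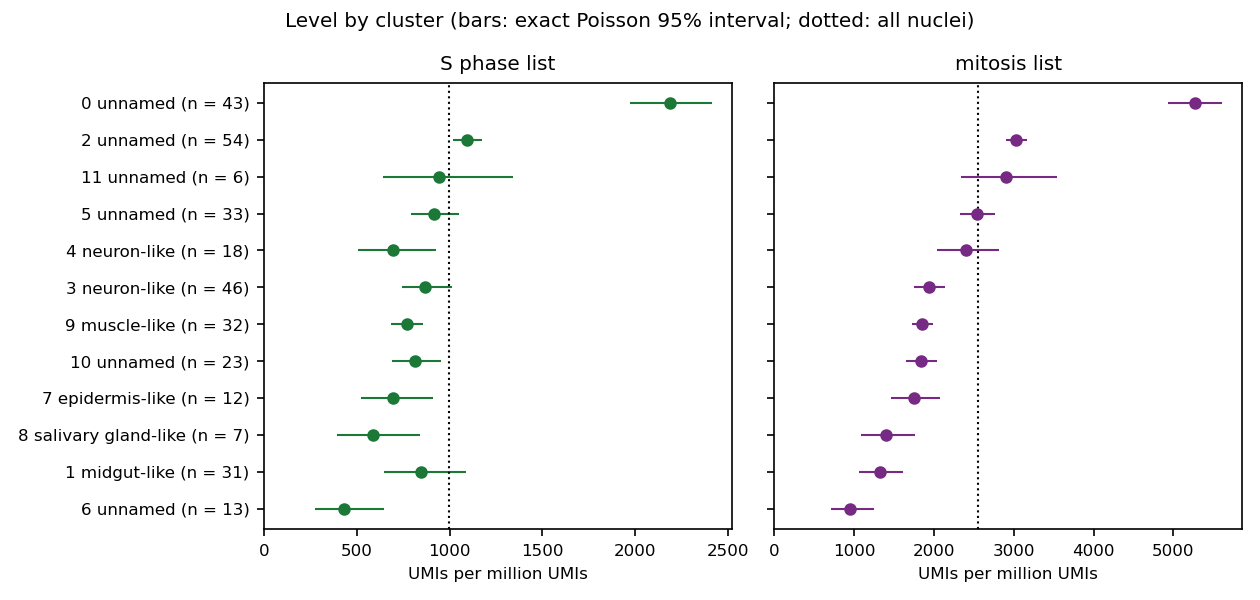
S phase list (left) and mitosis list (right) in each of the 12 clusters, in CPM with exact Poisson 95% intervals, with the level of all nuclei as a dotted line. Cluster 0 stands apart at 2187 and 5263 CPM, and cluster 6 is lowest at 429 and 951 CPM.

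The balance between the lists was compared next. The ratio of mitosis to S phase UMIs lay between 2.22 and 3.47 in 11 of the 12 clusters, and in each of these the interval overlaps that of the library (2.43 to 2.68). Several of these intervals are wide, such as 2.47 to 4.94 in cluster 4, so a difference of moderate size would not be detectable there. In the salivary gland-like cluster, named for a tissue that also turns to endocycles, the ratio was 2.38 (1.52 to 3.81) on 69 mitosis and 29 S phase UMIs. Of these, 39 mitosis and 15 S phase UMIs lay in 1 of its 7 nuclei, and without that nucleus the ratio was 2.14 (1.10 to 4.37). Cluster 0, with the highest level of both lists, had a ratio of 2.41 (2.14 to 2.72). The exception was the midgut-like cluster, at 1.56 (1.12 to 2.18) on 95 mitosis and 61 S phase UMIs, against 2.58 (2.45 to 2.71) in all other nuclei. S phase genes stood there at 847 CPM (648 to 1088), 0.844 times the others (0.643 to 1.09), and mitosis genes at 1319 CPM (1067 to 1612), 0.510 times (0.412 to 0.624). CycA had 2 UMIs in these 31 nuclei, 0.101 times the level elsewhere (0.0122 to 0.368), and cid had none. Cdc6 and Orc1 had 6 UMIs each, 2.73 times (0.966 to 6.26) and 2.69 times (0.952 to 6.16), and with them 2 of 38 members were at least 2-fold higher, against 8.09% of all genes. 11 members were at least 2-fold lower, against 28.8% of all genes. The median log2 ratio of (CPM + 10) was -0.33 for the S phase list and -0.75 for the mitosis list, against -0.27 for all genes. stg, with 22 UMIs from 10 nuclei, and CycB, with 16 from 12, were still found there.

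The midgut value also rested on 1 nucleus. A midgut-like nucleus of 7573 UMIs held 15 S phase UMIs, from 10 genes, and 1 mitosis UMI, which was of aurB. Without it the ratio of the cluster was 2.04 (1.42 to 2.97), an interval that overlaps that of the library. That nucleus had 3 UMIs of CycE, 2 each of PCNA, Orc1 and Cdc6, none of stg or of the mitotic cyclins, 3 UMIs of E2f1, and UMIs of the midgut markers mesh (11), Tsp2A (7), Ssk (6) and GATAe (2). Among the 146 nuclei with at least 10 UMIs of the 38 genes, the share of S phase was 27.8% in the median nucleus, with quartiles of 22% and 33.3%. In this nucleus it was 93.8% (69.8% to 99.8%), the highest of all, and the next highest was 70%. At the other end an epidermis-like nucleus of 6002 UMIs had 1 S phase and 17 mitosis UMIs (5.56%, 0.141% to 27.3%). These nuclei were picked by their values and are given as a description. In clusterings at resolution 0.5 and with 15 neighbours all 31 midgut-like nuclei fell into 1 cluster with most of cluster 0.

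**Figure D5:**
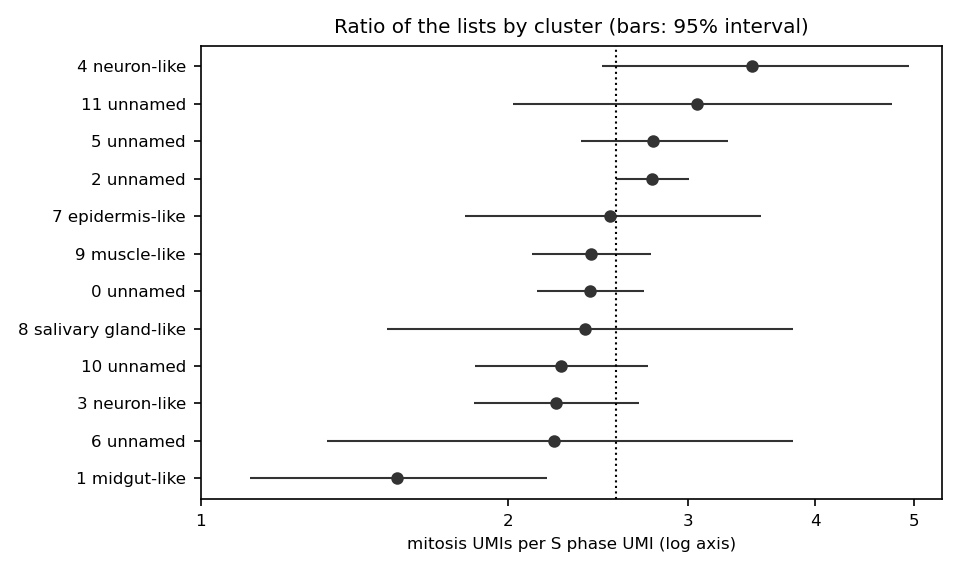
Mitosis UMIs per S phase UMI in each cluster, on a log axis, with 95% intervals and the ratio of the whole library, 2.55, as a dotted line. The midgut-like cluster is lowest at 1.56, and the intervals of the other 11 clusters overlap that of the library.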

How the data were processed

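The authors deposited raw counts, whole numbers for each gene in each nucleus, taken here as UMIs because the labels name 10x Genomics. The genome build is dm3, per the submitters' processing notes. No source used here gives the aligner, the counting program, its use of strand or the barcode filter. All 318 nuclei were kept. Scrublet called 7 as doublets and none was removed.

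The 38 members and all lists were chosen with earlier results of these data known. Of 350 list entries, 333 were found by symbol, 14 by a RefSeq synonym and 3 not. The members named in full were the 6 with the most UMIs in each list, and for a cluster those with the 2 highest and 2 lowest ratios. Pathway lists are shown by their 4 highest genes. Pairs, single nuclei and other named members were chosen after their values were seen.

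Clusters came from scanpy 1.11.5 (igraph 0.11.9, scipy 1.17.1, numpy 2.4.6): counts scaled to 10000 UMIs per nucleus, log-transformed, 2000 variable genes without those of the cycle lists, 20 components, 10 neighbours, Leiden resolution 1.0, seed 0. A name needed at least 3 markers that were over 2-fold higher with at least 5 UMIs, and more than any other list had. A name was withheld from clusters 0, 6, 10 and 11 after their genes were seen. Ratios are of CPM, with conditional binomial intervals. Calls of 2-fold used CPM + 10 and genes with at least 20 UMIs. Shares have Clopper-Pearson intervals, levels Poisson intervals, and the difference of shares a Newcombe interval. Thinning drew UMIs without replacement. The steps were tested on simulated data. The planned count of promoter motifs was not run, and no sequence is shown. Alternatives left out nuclei, doublets or genes and changed thinning and clustering.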

Additional observations from a re-analysis of the deposited data

How the results depend on the processing

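All values rest on 1 library of 318 nuclei, so they carry counting error and no error between samples. No paired analysis was possible because there is 1 library and no replicate. Of the alternative values 69 stayed the same, which means within the interval of the reported value, 41 moved beyond it and 1 reversed. Counts of members have no interval, and for them a change of at most 1.5-fold was taken as the same. Shares at other depths and list levels without a member differ by design, and the cause of the other moves was not tested. The alternatives that left out the nucleus with the most member UMIs, averaged over all draws or recomputed the midgut-like ratio were chosen after seeing the data. The S phase and mitosis lists took 0.0934% and 0.240% of UMIs without the 32 deepest nuclei, 0.0894% and 0.224% with every nucleus weighed the same, and 0.0830% and 0.201% without CycE and stg, the member with the most UMIs in each list. The ratio of mitosis to S phase UMIs was 2.19 after thinning to 1000 UMIs and 2.42 without those members. The share of nuclei with an S phase UMI was 35.6% at 500 UMIs and 78.4% at 2000 UMIs, and with a mitosis UMI 61.1% and 94.7%, or 74.8% without stg. The co-detection difference was 16.2 points in another draw. In cluster 0 the S phase and mitosis ratios were 1.79 and 1.83 without the deepest nucleus of each cluster, 1.92 and 2.07 after thinning, 1.69 and 2.01 with equal weights, 1.81 and 1.84 without the nucleus with the most member UMIs, 2.0 and 1.76 at resolution 0.5, and 1.99 and 1.77 with 15 neighbours. At the last 2 settings the matching cluster held 74 and 73 nuclei in place of 43. The members at least 2-fold higher there numbered 9 without the deepest nuclei and 10 without the nucleus with the most member UMIs. In cluster 2 the S phase ratio was 1.27 without the deepest nuclei, 1.29 after thinning, 1.25 with equal weights, 1.27 without the nucleus with the most member UMIs and 1.36 at resolution 1.5. Its mitosis ratio was 1.40 without the deepest nuclei, 1.13 after thinning, 1.43 without the nucleus with the most member UMIs, 1.23 at resolution 1.5 and 1.23 with 15 neighbours. The mitosis ratio of muscle-like nuclei was 0.590 without the 5% highest Scrublet scores, and the S phase ratio of neuron-like cluster 3 reversed to 1.19 with equal weights. At resolution 0.5 and with 15 neighbours the midgut-like nuclei merged with most of cluster 0, and the merged cluster, whose ratio of 2.30 and 2.31 is not a midgut-like value, is the one of 74 and 73 nuclei above. At a median of 2969 UMIs per nucleus most members were found in few nuclei, which limits what can be said of single genes.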
